A study of Canis lupus familiaris with 11 samples.

Results

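Glycolysis and hypoxia response genes were followed in the stromal vascular fraction (SVF) of canine visceral fat, the mixture of stromal, vascular and blood-derived cells that is left when adipose tissue is digested with enzymes. The set was a list of 38 named genes: glucose entry, the steps of glycolysis, lactate handling, the pyruvate dehydrogenase kinases, the hypoxia-inducible factors with their oxygen sensors, and known targets of those factors. For each gene the array feature that names that gene alone was taken, and where there were several, the one with the highest mean over the 8 arrays of dogs 2 and 3. Under this rule 37 of the 38 were measured, out of 15947 genes with a feature of their own. GAPDH was not measured, because its 3 features also name other genes. Enolase 1 (ENO1) had 2 features, of which the second was dim, between 3.10 and 3.49 on these 8 arrays, and the other 36 members had 1 feature each.

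The series held 11 Affymetrix arrays in 2 sets. In the company set, visceral fat of a 6 year old neutered male Labrador was divided into 3 portions of about 20 g, and companies A, B and C each digested 1 portion with a proprietary method. These SVF samples were frozen for about 1 month, thawed, and put on 1 array each with no further treatment. In the second set, the fat of dogs 2 and 3, both labelled as a German Shepard mix, neutered male and 10 year old, was digested by 1 company. For each dog, 2 arrays held untreated SVF that was not incubated, and 2 held SVF that had received photo-activated platelet-rich plasma (PRP, a platelet concentrate from blood) and was incubated for 6 h at 37 °C. PRP and incubation were always given together, so the contribution of either cannot be told apart, and added platelets also bring their own RNA. The labels number the arrays 1 and 2 in each group but do not say that they came from separate preparations, so the p-values here rest on differences among these arrays alone, which may be technical.

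Glycolysis breaks glucose down to pyruvate in the cytosol, and pyruvate either enters the mitochondria or is reduced to lactate and exported. When oxygen falls, prolyl hydroxylases no longer mark hypoxia-inducible factor alpha subunits for degradation, and the factors raise the transcription of glucose transporters, glycolytic enzymes and genes for survival at low oxygen. Pyruvate dehydrogenase kinases close the mitochondrial entry of pyruvate by phosphorylating the pyruvate dehydrogenase complex. PDK1 is a hypoxia target, whereas PDK4 is best known as a gene of fasting and fatty acid oxidation, under PPAR and FOXO factors and glucocorticoids, and it is prominent in adipose tissue.

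All values are the deposited expression levels, read as log2 from their range, on which 1 unit is a 2-fold difference. The 3 company arrays had medians of 5.14 to 5.31 and the 8 arrays of dogs 2 and 3 had medians of 6.76 to 6.85. The sets were therefore treated as scaled apart, and levels were compared only within a set. Levels of different genes rest on different probes and were not compared. CA9 lay at or below the lower quartile of an array, on the 3 company arrays. No other member did so on any array. Stromal markers had mean levels of 11.69 to 12.38 in dogs 2 and 3, and markers of mature adipocytes, cells that preparing SVF is meant to remove, had mean levels of 9.14 to 11.36 there. The RNA is bulk RNA, in which fewer cells of a type and less RNA per cell cannot be told apart.

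No member passed the test between PRP-treated and untreated SVF. In limma, with the 4 group means of dogs 2 and 3 fitted together and p-values adjusted by Benjamini-Hochberg over all 32391 features, 0 of 37 members had an adjusted p under 0.05, and 0.00627% of all genes did. That share was 1 gene, the platelet chemokine PPBP, which rose by 2.71 ± 0.19 log2 units (SE, adjusted p = 0.0295). Of 7 platelet markers measured, PPBP among them, 5 were higher and 2 lower after PRP, with a median of 0.11. PPBP was the only platelet marker at an unadjusted p under 0.05. At an unadjusted p under 0.05 there were 2 members, PFKFB3 lower and ALDOC higher after PRP, which is 5.41% of the members against 8.32% of all genes. This count moved with the arrays and the model. With the array number as a term it was 4 members, among 2015 genes. Leaving out single arrays moved it up or down, and moved the count over all genes too. The members' differences ran from -0.84 to 0.69, with 21 above 0 and 16 below. Their median was 0.03, beside -0.01 over all genes. When each array was first centred on its own median, 25 members lay above 0 and 12 below, and the median of all genes moved to 0.06.

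**Figure D1:**
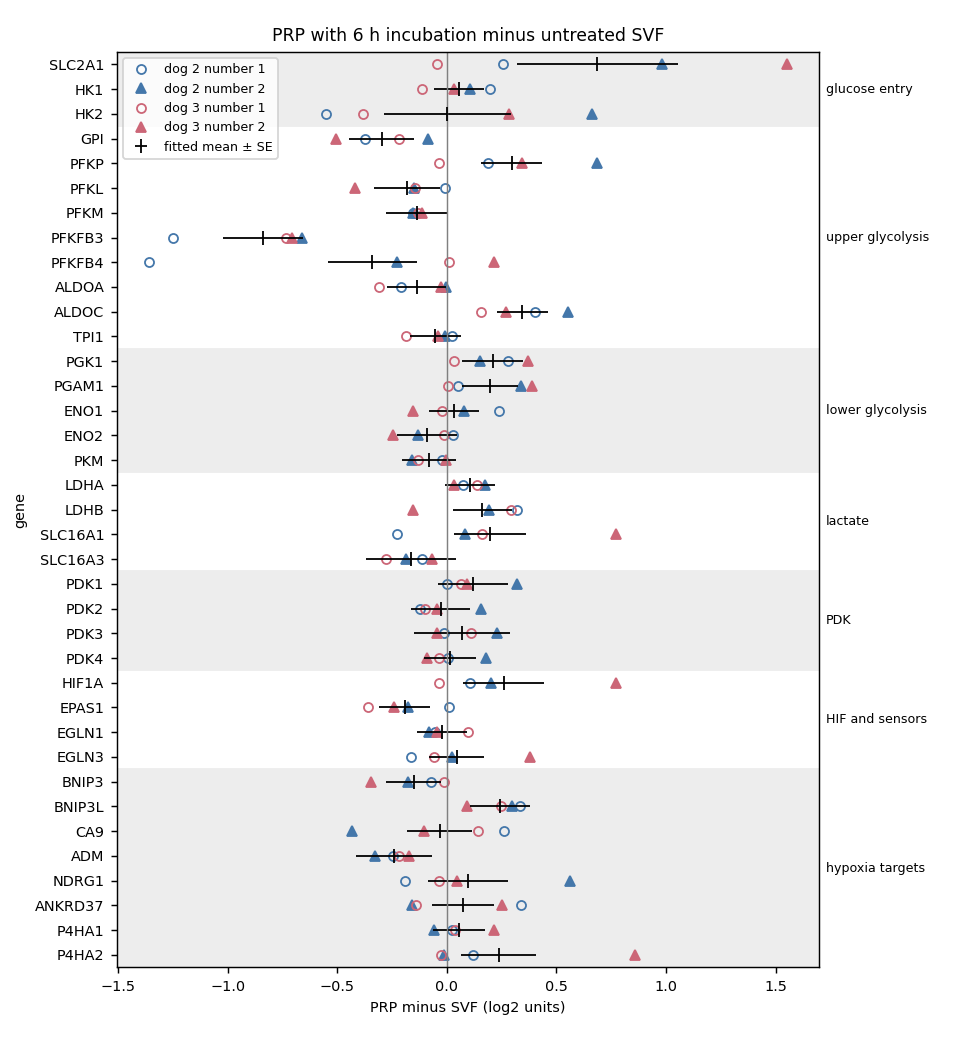
PRP-treated minus untreated SVF for 37 glycolysis and hypoxia genes, in log2 units, grouped by role. Open circles are the differences between arrays of number 1 and filled triangles those of number 2 (dog 2 blue, dog 3 red), and the black tick and bar are the fitted mean and its SE. PFKFB3 lies below 0 in every pair, and SLC2A1 spreads from -0.05 to 1.55.

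The widest difference after PRP was in PFKFB3, which makes fructose 2,6-bisphosphate, the strongest activator of phosphofructokinase. In dog 2 its level was 10.55 and 9.78 on the untreated arrays and 9.30 and 9.12 after PRP. In dog 3 it was 9.87 and 9.80 untreated and 9.13 and 9.10 after PRP. All 4 PRP arrays were below all 4 untreated arrays. The mean difference was -0.84 ± 0.18 (SE), or 1.79-fold, with an unadjusted p of 0.0020 and an adjusted p of 0.350 in limma. It was -0.96 in dog 2 and -0.72 in dog 3.

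ALDOC, the aldolase isoform first known from brain, was the member with the second smallest p. Its level was 7.54 and 7.39 in untreated dog 2 and 7.94 on both PRP arrays. Dog 3 had 7.91 and 7.76 untreated and 8.06 and 8.03 after PRP. The groups did not overlap within either dog, but untreated dog 3 reached nearly the level of PRP-treated dog 2. The difference was 0.34 ± 0.12, with an unadjusted p of 0.0192 and an adjusted p of 0.469 in limma. The common aldolase ALDOA lay between 6.82 and 7.25 on all 8 arrays and differed by -0.14.

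**Figure D2:**
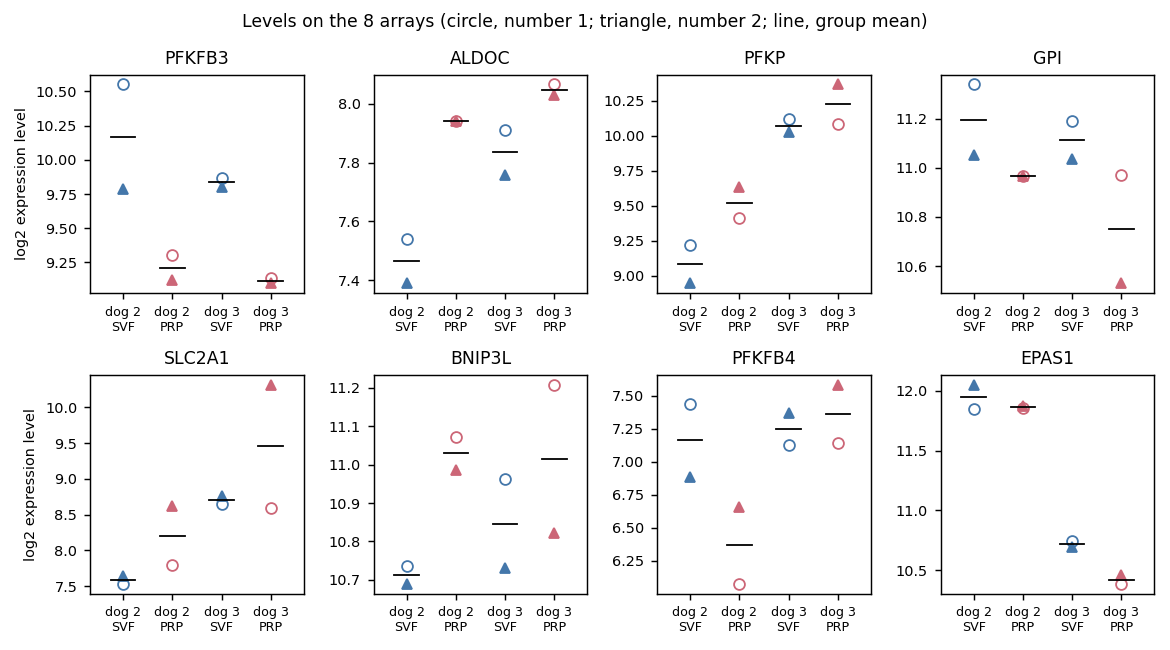
Log2 expression level on each of the 8 arrays of dogs 2 and 3 for the 8 members with the smallest p between PRP and untreated SVF, each panel on its own scale. Circles are arrays of number 1, triangles arrays of number 2, and lines group means (2 arrays each). In PFKFB3 the PRP arrays are at 9.10 to 9.30 and the untreated arrays at 9.78 to 10.55, and EPAS1 separates the dogs.

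In glucose entry, arrays of the same group lay far apart for SLC2A1 and HK2. SLC2A1 encodes GLUT1, the basal glucose transporter and a classic hypoxia target. Its level was 7.53 and 7.64 in untreated dog 2 and 7.79 and 8.62 after PRP. In dog 3 it was 8.64 and 8.76 untreated, and 8.60 and 10.32 after PRP. The number 2 PRP arrays were the high ones in both dogs, and the number 1 PRP array of dog 3 was below both of its untreated arrays. The mean difference was 0.69 ± 0.37 (limma adjusted p = 0.580). It was 1.12 without the dog 3 PRP array of number 1 and 0.26 without that of number 2, and without the number 2 PRP arrays of both dogs, a setting chosen after seeing the data, it was 0.05. Hexokinase 2 (HK2), the inducible enzyme that traps glucose in the cell, had pair differences of -0.55 and 0.66 in dog 2 and of -0.38 and 0.28 in dog 3, and a mean difference of 0.00. Hexokinase 1 (HK1), the constitutive form, stayed within 9.24 to 9.52 on all 8 arrays.

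In upper glycolysis, 2 of 9 members were higher and 7 lower after PRP, with a median of -0.14. The platelet-type phosphofructokinase PFKP was at 9.22 and 8.95 in untreated dog 2 and at 9.41 and 9.63 after PRP. In dog 3 it was at 10.12 and 10.02 untreated and at 10.09 and 10.37 after PRP, where the arrays overlapped. Its difference was 0.30 ± 0.14 (limma adjusted p = 0.539), and 0.17 without the number 2 PRP arrays of both dogs. The liver type PFKL and the muscle type PFKM differed by -0.18 and -0.14, and the triosephosphate isomerase TPI1 by -0.05.

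Glucose-6-phosphate isomerase (GPI), which makes fructose 6-phosphate, was at 11.34 and 11.05 in untreated dog 2 and at 10.97 on both PRP arrays. Dog 3 had it at 11.19 and 11.04 untreated and at 10.97 and 10.53 after PRP. The PRP arrays were the lower ones in both dogs. The difference was -0.30 ± 0.15 (limma adjusted p = 0.556), and -0.19 without the number 2 PRP array of dog 3.

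PFKFB4, a relative of PFKFB3, had differences of opposite sign in the dogs. It was at 7.44 and 6.88 in untreated dog 2 and at 6.08 and 6.66 after PRP, and at 7.13 and 7.37 in untreated dog 3 and at 7.14 and 7.58 after PRP. The difference was -0.79 in dog 2 and 0.11 in dog 3, with no overlap in dog 2 and overlap in dog 3. Set against each other in a test, the PRP effects of the dogs gave an unadjusted p of 0.060 and an adjusted p of 0.9999 in limma. Over both dogs it was -0.34 ± 0.20 (limma adjusted p = 0.622). It was -0.19 without the number 1 PRP array of dog 2, -0.20 without the number 1 SVF array of dog 2, and -0.60 without the number 2 PRP arrays of both dogs.

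Lower glycolysis and lactate genes had differences between -0.16 and 0.21 after PRP, and none passed the test. Phosphoglycerate kinase 1 (PGK1) differed by 0.21 and phosphoglycerate mutase 1 (PGAM1) by 0.20. ENO1 differed by 0.03, the neuronal enolase ENO2 by -0.09 and pyruvate kinase PKM by -0.08. In PGAM1 both PRP arrays exceeded both untreated arrays in each dog, by as little as 0.01 between the number 1 arrays of dog 3. Lactate dehydrogenase A (LDHA), which reduces pyruvate to lactate, was at 12.08 and 12.12 in untreated dog 2 and at 12.15 and 12.29 after PRP. In dog 3 it was at 12.05 and 12.15 untreated and at 12.19 and 12.18 after PRP, so that the PRP arrays were again the higher ones by a small margin. LDHA differed by 0.10 and LDHB by 0.16. The lactate transporters SLC16A1 (MCT1) and SLC16A3 (MCT4, the exporter induced in hypoxia) differed by 0.20 and -0.16, and the number 2 PRP array of dog 3 stood highest for SLC16A1, at 10.03.

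The hypoxia-inducible factors and their sensors did not pass the test either. HIF1A was at 11.95 and 12.08 in untreated dog 2 and at 12.05 and 12.28 after PRP, and at 11.95 and 11.91 in untreated dog 3 and at 11.92 and 12.68 after PRP. The number 2 PRP array of dog 3 was the high one, and the mean difference was 0.26 ± 0.18 (limma adjusted p = 0.671). EPAS1, which encodes HIF-2 alpha, the factor prominent in endothelium, differed by -0.19 ± 0.12 (limma adjusted p = 0.623). The prolyl hydroxylases EGLN1 (PHD2) and EGLN3 (PHD3), of which the latter is also a hypoxia target, differed by -0.02 and 0.05.

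Among 8 further hypoxia targets, 5 were higher and 3 lower after PRP, with a median of 0.06. BNIP3L (NIX), a receptor for the removal of mitochondria, was at 10.74 and 10.69 in untreated dog 2 and at 11.07 and 10.99 after PRP. Dog 3 had it at 10.96 and 10.73 untreated and at 11.21 and 10.82 after PRP, where the arrays overlapped. The difference was 0.24 ± 0.14 (limma adjusted p = 0.605), and 0.15 without the number 1 PRP array of dog 3. Its relative BNIP3 differed the other way, by -0.15, with the PRP arrays the lower ones in both dogs. The vasodilator peptide gene ADM differed by -0.24, NDRG1 by 0.10, ANKRD37 by 0.07, and carbonic anhydrase CA9, a gene of low signal here, by -0.03. The collagen prolyl hydroxylase subunits P4HA1 and P4HA2 differed by 0.05 and 0.24, and P4HA2 was high, at 9.93, on the number 2 PRP array of dog 3.

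The array of number 2 of PRP-treated dog 3 stood apart in several members. The root mean square difference between the arrays of a group, over the members, was 0.48 in PRP-treated dog 3 and between 0.24 and 0.29 in the other 3 groups. Over all genes it was 0.52 in PRP-treated dog 3 and between 0.35 and 0.37 in the others. The number 2 pair of dog 3 gave a higher difference than the number 1 pair in 25 of 37 members and in 8576 of 15947 genes. In dog 2 it did so in 18 of 37 members and in 7992 genes.

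Within each dog, no member passed the test after adjustment, and no gene did. At an unadjusted p under 0.05 there were 3 members in dog 2, or 8.11% of them against 2.46% of all genes. In dog 3 there was 1 member, or 2.7% against 4.63% of all genes. The member counts of both dogs moved when single arrays of that dog were left out. The difference between the dogs in their PRP effect was past an unadjusted p of 0.05 in 0 members and in 0.552% of all genes. It was past an adjusted p of 0.05 in 0% of all genes. This count of members also moved when single arrays were left out. Both PRP arrays lay beyond both untreated arrays, in the same direction in each dog, for 6 members. ALDOC, PGAM1 and LDHA were higher, and GPI, PFKFB3 and BNIP3 lower. These are 16.2% of the members, and 13.6% of all genes had such a pattern.

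No marker of adipocytes, T and NK cells or macrophages passed the test after PRP, and their values are given beside those of the members. Of 14 adipocyte markers measured, 0 were higher after PRP and the median difference was -0.57, with 9 lower at an unadjusted p under 0.05 in limma. Their mean level was 11.07 to 11.36 in untreated dog 2 and 10.74 to 10.88 after PRP, and 10.12 to 10.35 in untreated dog 3 and 9.14 to 9.60 after PRP. Of 12 T and NK cell markers 10 were higher, with a median of 0.45 and 4 at an unadjusted p under 0.05. Of 10 macrophage markers 7 were higher, with a median of 0.24 and 0 at an unadjusted p under 0.05, and in dog 3 they split into 5 higher and 5 lower. The part of these cells in the members' values was not tested.

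More genes were past the threshold between the dogs than between the conditions. In untreated SVF, 1 of 37 members passed the test between dog 2 and dog 3 at an adjusted p under 0.05 in limma, or 2.7% against 1.72% of all genes. At an unadjusted p under 0.05 there were 7 members, or 18.9% against 12.8% of all genes, 2 of them higher and 5 lower in dog 2. The median member difference was -0.04, beside -0.01 over all genes. Each group was 1 dog, so these p-values compare the SVF of these 2 animals and not dogs of a kind.

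EPAS1 was the member that passed. Its level was 11.85 and 12.05 in untreated dog 2 and 10.75 and 10.70 in untreated dog 3. After PRP it was 11.86 and 11.87 in dog 2 and 10.39 and 10.46 in dog 3. All 4 arrays of dog 2 were above all 4 of dog 3. Untreated dog 2 exceeded untreated dog 3 by 1.23 ± 0.16 (SE), or 2.34-fold, with an adjusted p of 0.0227 in limma. After PRP the difference was 1.44 ± 0.16 (limma adjusted p = 0.0110). The call was lost when any of 6 of the 8 arrays was left out, with the adjusted p at 0.160 without dog 2 SVF 2 at the most, while the difference stayed between 1.13 and 1.33.

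Markers of endothelium, where EPAS1 is prominent, were higher in dog 2 in 12 of 12 cases, with a median of 1.45, and 5 of them passed the test. Their mean level was 10.33 to 10.64 in untreated dog 2 and 9.06 to 9.16 in untreated dog 3, and 10.38 to 10.46 and 8.47 to 8.89 after PRP. Adipocyte markers were higher in dog 2 in 14 of 14 cases, with a median of 1.03, and 4 of them passed. Pericyte and smooth muscle markers were higher in 9 of 10, with a median of 1.03, and 3 passed. Mast cell markers were higher in 6 of 7, with a median of 0.77, and 1 passed. Macrophage markers were lower in 9 of 10, with a median of -0.51. Stromal markers were lower in dog 2 in 12 of 12 cases, with a median of -0.37. The part of these cells in the difference was not tested.

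Members of glucose use were mostly lower in untreated dog 2. Of 3 entry genes, 14 glycolysis genes and 4 lactate genes, 3, 11 and 4 were lower in untreated dog 2, with medians of -1.12, -0.11 and -0.38. Over all genes, 8362 of 15947 were lower, with a median of -0.01. Of 25 further genes of glycolysis and pyruvate use, outside the set, 14 were higher and 11 lower, with a median of 0.04. The members named here were chosen after their values were seen. HK2 was at 7.83 and 7.52 in untreated dog 2 and at 9.28 and 9.66 in untreated dog 3, and the dogs did not overlap after PRP, at 7.27 and 8.19 against 8.90 and 9.94. The difference in untreated SVF was -1.80 ± 0.41 (limma adjusted p = 0.0992). PFKP differed by -0.99 ± 0.19 (limma adjusted p = 0.0678). ENO1 was at 10.05 and 10.09 in dog 2 and at 10.83 and 10.88 in dog 3, a difference of -0.79 ± 0.16 (limma adjusted p = 0.0726), or -0.32 when its dim second feature was averaged in. PKM differed by -0.72 ± 0.17 (limma adjusted p = 0.117), and NDRG1, a stress and hypoxia target, by -0.87 ± 0.26 (limma adjusted p = 0.194). SLC2A1 differed by -1.12 ± 0.52 (limma adjusted p = 0.483), with all arrays of untreated dog 3 above those of untreated dog 2. None of these passed the test in this fit. An additive model of dog and condition, which compares the dogs over untreated and PRP arrays together, called 8 members and 1515 of all genes. The 8 were HK2, PFKP, ENO1, PKM, SLC16A1, EPAS1, BNIP3 and NDRG1. HIF1A differed by 0.08 and LDHA by 0.00.

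**Figure D3:**
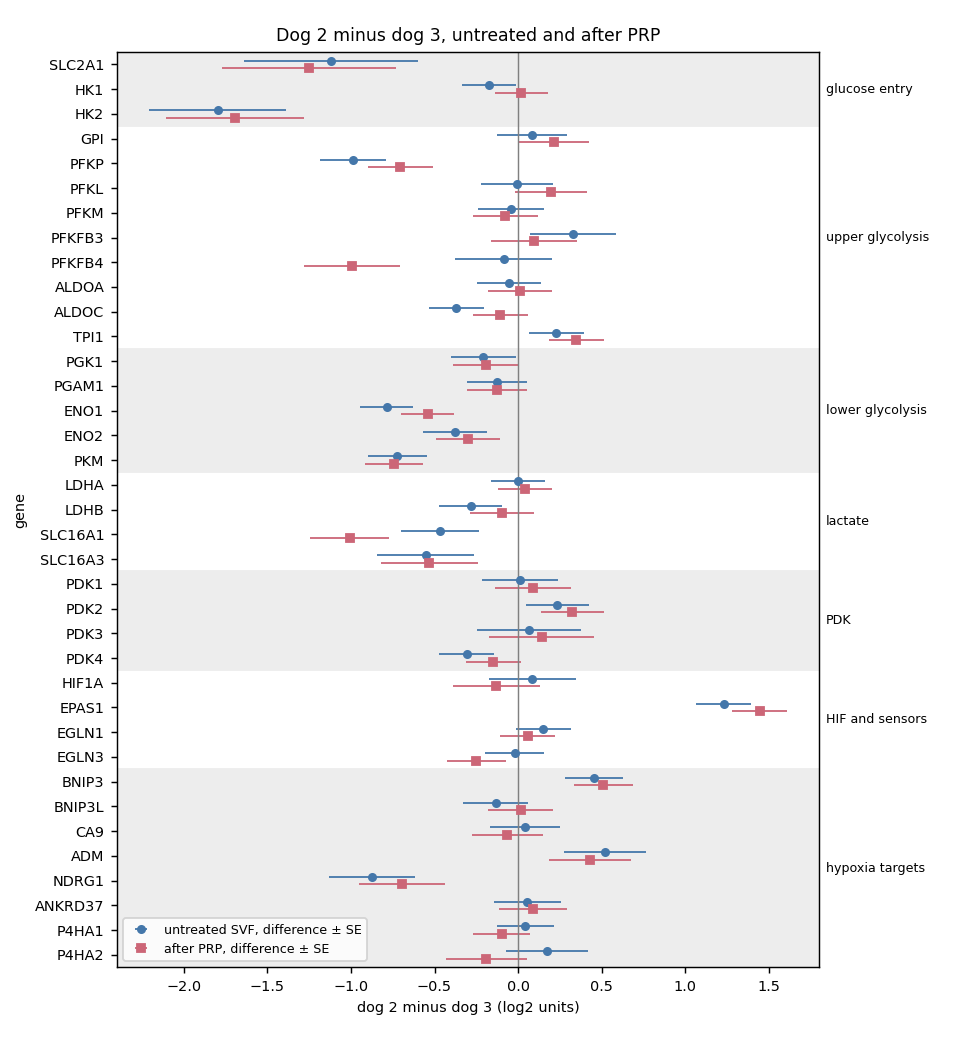
Dog 2 minus dog 3 for 37 members in log2 units, in untreated SVF (blue circles) and after PRP (red squares), with bars of 1 SE. EPAS1 is at 1.23 and 1.44, HK2 at -1.80 in untreated SVF, and the entry, lower glycolysis and lactate genes lie at or left of 0 in untreated SVF.

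Between the companies there was 1 array each, so differences are given with no test and no error. The comparison asks how SVF of 1 dog differs with the company that digested it, and company, portion of fat and freezing cannot be told apart. Company B stood apart from A and C. Against A, 7 members were at least 2-fold higher in B, or 18.9% against 4.51% of all genes, and 4 were at least 2-fold lower, or 10.8% against 5.58% of all genes. C against A gave 3 members at least 2-fold higher, or 8.11% against 1.21% of all genes, and 0 at least 2-fold lower against 0.426% of all genes. C against B gave 5 members higher, or 13.5% against 5.91% of all genes, and 1 lower, or 2.7% against 3.82% of all genes. The medians over the members were 0.16 for B minus A, 0.14 for C minus A and 0.00 for C minus B, beside 0 over all genes in each.

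PFKL, PFKM, PDK1, PDK3, EGLN1 and CA9 had 1 identical value on all 3 company arrays. These are 6 of 37 members, or 16.2%, against 32.8% of all genes, and for them these values carry no comparison between the companies. They varied between the 8 arrays of dogs 2 and 3. The 2-fold shares over all genes given above include the genes with 1 identical value. Of the 37 members, 34 lay above the array median in company A, and 33 in B and in C. The part of signal level in these shares was not tested.

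PDK4 carried the widest difference. It was at 10.89 in company A, 10.72 in company C and 3.58 in company B. In the deposited values B was 7.31 log2 units below A, and C was 7.13 above B. The level in B was close to the lower quartile of that array, 3.57, where signal is low, so no fold is given. As deposited, these were the lowest value of B minus A and the highest of C minus B among all 15947 genes. The next lowest in B minus A was FGL1, a secreted fibrinogen-like protein, at -7.20.

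PDK2, the most widely expressed of the family, was the reverse, at 7.21 in A, 8.90 in B and 7.48 in C, and so 1.68 higher in B than in A. PDK1 was at 7.34 and PDK3 at 5.80 on all 3 arrays, values that carry no comparison between the companies.

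In dogs 2 and 3 none of the 4 kinases passed the test after PRP. PDK4 was at 12.43 and 12.21 in untreated dog 2 and at 12.44 and 12.40 after PRP, and at 12.60 and 12.66 in untreated dog 3 and at 12.56 and 12.57 after PRP. The whole range over the 8 arrays was narrow, from 12.21 to 12.66, and the groups overlapped in dog 2. The difference after PRP was 0.01 ± 0.12 (limma adjusted p = 0.976). PDK1 lay between 8.74 and 9.23, PDK2 between 8.54 and 9.10 and PDK3 between 7.66 and 8.44. Their differences after PRP were 0.12 ± 0.16, -0.03 ± 0.13 and 0.07 ± 0.22, each smaller than its SE.

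**Figure D4:**
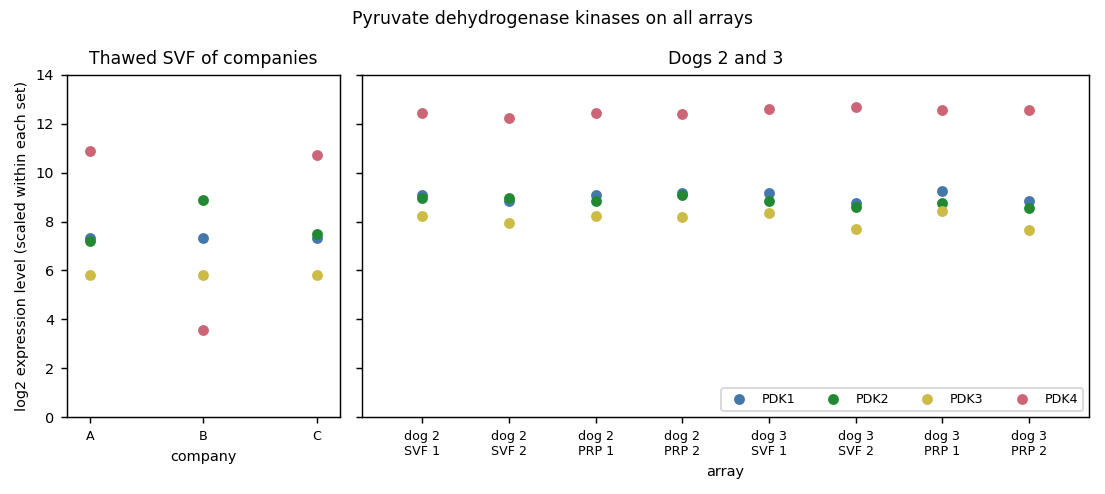
Log2 levels of PDK1 to PDK4 on the 3 company arrays (left) and on the 8 arrays of dogs 2 and 3 (right), treated as scaled separately by set. PDK4 is at 10.89 and 10.72 in companies A and C and at 3.58 in B, and from 12.21 to 12.66 in dogs 2 and 3. Heights of different genes are not comparable.

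Other genes of fasting and of PPAR and FOXO control, a list chosen to stand beside PDK4, were more often lower than higher in company B. Of 16 measured, 9 were lower in B than in A, 1 was higher and 6 were equal, with a median of -0.10. Over all 15947 genes, 4080 were lower, 5522 higher and 6345 equal. At least 2-fold lower in B were 3 of the 16, beside 5.58% of all genes. At least 2-fold higher was 1, beside 4.51% of all genes. TXNIP, which restrains glucose uptake, was at 12.35 in A, 9.43 in B and 11.90 in C. ANGPTL4, an inhibitor of lipoprotein lipase, was at 7.33, 5.25 and 8.21, and the lipid droplet coat gene PLIN2 at 9.89, 7.85 and 10.75. PPARD, itself a fatty acid receptor, was higher in B, at 6.52, 8.14 and 6.64. After PRP 0 of the 16 passed the test, and 4 were higher and 12 lower, with a median of -0.14.

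Most members among the steps of glycolysis were higher in company B. Of 14 measured, 9 were higher in B than in A, 1 was lower and 4 were equal, with a median of 0.63. C minus B was below 0 in 10 of them, with a median of -0.47. Over all 15947 genes, 5522 were higher in B than in A, 4080 lower and 6345 equal. Of 25 further genes of glycolysis and pyruvate use, outside the set, 11 were higher in B than in A, 5 lower and 9 equal. Their median was 0, with 2 at least 2-fold higher and 2 at least 2-fold lower. ALDOC was at 6.19 in A, 7.59 in B and 6.87 in C. PGAM1 was at 7.77, 9.14 and 8.25, and B was the highest for both. PFKP was 1.05 and TPI1 1.05 above A in B, ENO1 0.94, PKM 0.97 and PGK1 0.82. The lower member was PFKFB3, at 8.34 in A, 7.09 in B and 8.62 in C, which was also the member with the smallest p after PRP.

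Of 3 glucose entry genes 2 were higher in company C than in A, and of 4 lactate genes 4 were. HK2 was at 6.27 in A, 6.05 in B and 7.96 in C. SLC16A1, which carries lactate across the membrane, was at 6.42, 6.67 and 7.92. C was the high array for both, and for HK2 it exceeded A by 1.69. SLC2A1 was at 5.56, 6.34 and 6.30, where A was the low array. HK1 was the entry gene that was lower in C than in A, at 8.17, 8.68 and 8.01. LDHA lay between 10.46 and 10.64.

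Hypoxia targets split between the companies. ADM was at 7.58 in A, 8.94 in B and 9.12 in C, and P4HA2 at 8.13, 9.36 and 8.48. ANKRD37, a target of HIF-1, was at 7.09, 5.83 and 7.67, and BNIP3L at 8.64, 7.62 and 8.53. B was thus high for P4HA2 and low for ANKRD37 and BNIP3L. BNIP3 was at 6.53, 7.23 and 6.41, HIF1A at 9.96, 9.40 and 10.26, and NDRG1 at 8.68, 8.36 and 9.05. EPAS1 was at 8.13, 8.22 and 8.22. B lay at least 2-fold from both other companies in the same direction for 4 members, PFKFB3, PDK4 and ANKRD37 lower and PDK2 higher, and for 1186 of 15947 genes.

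**Figure D5:**
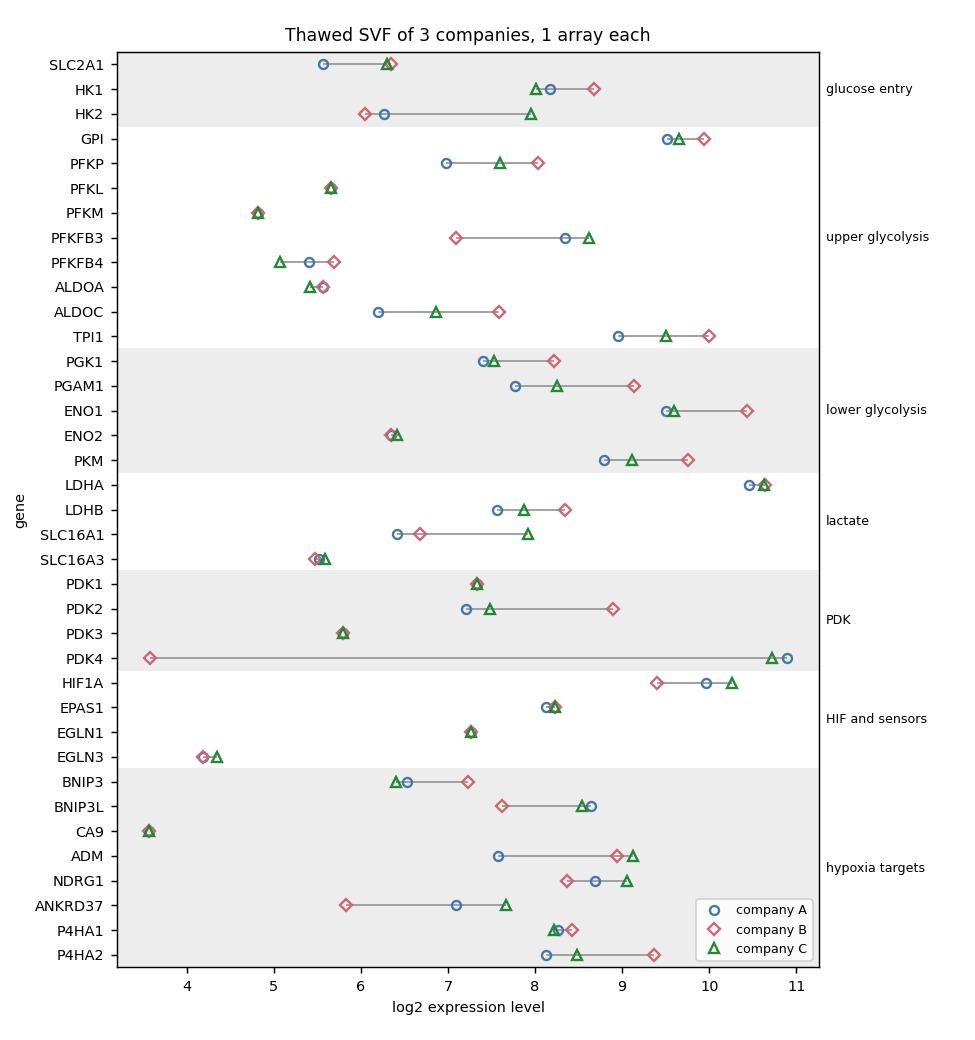
Log2 expression level of 37 members in thawed SVF of companies A (circle), B (diamond) and C (triangle), 1 array each, with a line from the lowest to the highest. PDK4 in B is at 3.58, and B is at the right end for most steps of glycolysis, such as PGAM1 at 9.14.

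Cell markers of the companies are given beside these values. Macrophage markers were at least 2-fold lower in B than in A in 8 of 10 cases, with mean levels of 7.47 in A, 5.14 in B and 7.39 in C. T and NK cell markers were at least 2-fold lower in 7 of 12, with mean levels of 6.05, 4.23 and 6.18. Endothelial markers were lower in 5 of 12 (6.18, 5.03 and 6.58), stromal markers in 4 of 12, with 1 at least 2-fold higher (11.24, 10.23 and 11.28), and adipocyte markers in 2 of 14 (5.49, 4.87 and 5.81). Pericyte and smooth muscle markers were at least 2-fold higher in B than in A in 2 of 10 and lower in 1 (5.76, 6.10 and 5.85). Mast, B and plasma cell, and erythroid markers were at least 2-fold lower in B in 3, 2 and 2 of 7. Mesothelial markers were so in 1 of 8, with 1 at least 2-fold higher. Neutrophil markers were at least 2-fold lower in B than in A in 3 of 9 and higher in C than in A in 3 of 9 (5.47, 4.75 and 6.14). Platelet markers were at least 2-fold higher in C than in A in 5 of 7, with mean levels of 5.60, 5.50 and 7.54. The part of these cells in PDK4, PFKFB3, HK2 and the glycolysis genes was not tested.

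Further genes of these pathways were counted from lists outside the set. Of 25 further genes of glycolysis and pyruvate use, 0 passed the test after PRP, with 11 higher and 14 lower and a median of -0.03. PFKFB1, the liver isoform of the PFKFB enzymes, differed by -1.54 ± 0.36 (limma adjusted p = 0.372). SLC2A4, which encodes GLUT4, the insulin-responsive transporter of fat and muscle, differed by -0.47 ± 0.13 (limma adjusted p = 0.425), and the lactate dehydrogenase LDHD by -0.28 ± 0.15 (limma adjusted p = 0.574). The 14 adipocyte markers also had a median below 0 after PRP, and their part in these values was not tested.

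Of 28 further hypoxia genes, 0 passed the test after PRP, with 11 higher and 17 lower and a median of -0.07. Glycogen synthase GYS1 differed by -0.51 ± 0.17 (limma adjusted p = 0.466). LOXL2, a collagen crosslinking enzyme, differed by -0.26 ± 0.12, and ARNT, the constitutive partner of the HIF alpha subunits, by -0.29 ± 0.13. Between the dogs 2 passed and both were lower in untreated dog 2, carbonic anhydrase CA12 by -1.85 ± 0.18 (limma adjusted p = 0.0104) and the secreted glycoprotein STC2 by -1.47 ± 0.20 (limma adjusted p = 0.0244). VEGFA, the main angiogenic target, was at 9.61 in company A, 9.50 in B and 9.88 in C.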

How the data were processed

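RNA from 11 SVF samples was hybridised to Affymetrix arrays, from 6 ug of total RNA per the labels. The authors deposited expression values for 32391 features, read here as log2 from their range. Partek is named in the submitters' processing notes, and its version, background correction and normalization are not given in any source used here. Gene names came from the platform annotation: 16545 features named 1 gene, 370 several and 15476 none. The gene IDs of 35 members were found in the RefSeq gene table with the same symbol.

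The 8 arrays of dogs 2 and 3 were fitted with limma 3.58.1 in R 4.3.3 as 4 group means, with 4 residual degrees of freedom, two-sided tests and Benjamini-Hochberg adjustment over all features at a threshold of 0.05. Counts over all genes use 1 feature for each of 15947 genes. No filter was applied. The fit was tested on simulated data. Company arrays were compared as differences, counted from 2-fold. The number of arrays limits the precision.

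Array numbers come from the titles. Deviations from the group means correlated between same-numbered arrays, over genes, at 0.24 to 0.60 in all 6 pairs of groups. They were highest between the 2 dogs within a condition, at 0.60 after PRP and 0.51 untreated. Between the conditions within a dog they were 0.39 in dog 2 and 0.24 in dog 3. Same-numbered arrays of the 2 dogs may thus not vary independently. With 2 arrays in a group this could not be settled and was not tested. The reported fit does not use the numbers. A replicate block within each dog, and array number as a term, were run as alternatives.

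Members and lists were chosen with earlier results of these data known. Values on every array of dogs 2 and 3 are given for the 8 members with the smallest p after PRP, those that passed any test, and PDK4. PDK1 to PDK3 are given there by range. Company values are given for PDK1 to PDK4 and for up to 8 members at least 2-fold apart in each comparison. Most other members are given by difference or range. The further glycolysis and hypoxia lists are given by count, median and up to 3 genes of smallest p after PRP. CA12, STC2 and VEGFA were named besides. In the list beside PDK4, the genes named are those at least 2-fold apart between companies A and B, and not those of smallest p.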

Additional observations from a re-analysis of the deposited data

Results flagged for a closer look

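ENO1, which encodes the main enolase of glycolysis, had differences of opposite sign in the 2 dogs after PRP, with both PRP arrays above both untreated arrays in dog 2 (a difference of 0.16) and both below in dog 3 (-0.09). The dogs' effects differed by 0.25 when tested against each other, with an unadjusted p of 0.308 and an adjusted p of 0.9999 in limma.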

How the results depend on the processing

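Under 17 other settings of the fit, 0 members passed the test after PRP over both dogs, and the median member difference stayed between -0.01 and 0.11. Under 16 settings 0 passed in either dog, where the additive model gives no value. With the replicate block for same-numbered arrays of a dog 0 members passed in the PRP comparisons, and the block changed no call there. The comparison of the dogs was not run with that block, whose pairs lie within a dog. With array number as a term it held 1 member, EPAS1, among 412 genes. The count of members that differed between untreated dogs 2 and 3 was 1 as reported, among 275 genes. It was 3 with an intensity trend, among 362 genes. With features above the median level only it was 4, among 525 of 10228 genes. It also moved when single arrays were left out. The causes were not tested, except that the filter tested 10228 genes and that leaving out an array lowers the number of samples. An additive model of dog and condition held 8 members, among 1515 genes. It compares the dogs over untreated and PRP arrays together, so it is a different comparison from that of untreated SVF. For EPAS1 the adjusted p in limma lay between 0.0607 and 0.160 without any of dog 2 SVF 1 or 2, dog 2 PRP 1 or 2, or dog 3 SVF 1 or 2. PDK2 after PRP was 0.045 with arrays centred on their medians and from -0.096 to 0.039 when each array was left out, PDK3 ranged from -0.13 to 0.27, and PDK4 from -0.040 to 0.068 and was -0.011 after repeated quantile normalization. At a threshold of at least 4-fold, chosen after seeing the data, B minus A held 1 member, C minus A 0 and C minus B 1, since PDK4 was the only member past it. Of 368 alternatives for single results, 342 kept direction and side of the threshold and 10 changed sign. Precision is limited by 2 arrays a group, 2 dogs and 1 array a company.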
